A study of Mus musculus with 8 samples.

Results

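The nuclear-encoded subunits of the mitochondrial respiratory chain were examined in retinal RNA of C57BL/6J mice aged 17 days. The mice had oxygen-induced retinopathy: high oxygen in early life stops capillary growth, and abnormal vessels form after the return to room air. Genes were taken by name: the Nduf A, B, C, S and V series, the Sdh, Uqcr and Atp5 series and Cox4 to Cox8, without pseudogenes. This gave 86 entries under 85 symbols among the 57010 genes of the deposited table, since Atp5o is listed under a pair of identifiers. They comprise 36 entries for complex I, 4 for complex II, 8 for complex III, 20 for complex IV and 18 for complex V. Ndufa4 was counted with complex IV, to which its product has been reassigned. In 4 libraries the eyes had received a control scAAV (AAV_NC, here control 1 to 4). In the other 4 the scAAV was directed against MM2P, a long noncoding RNA (AAV_sh, here knockdown 1 to 4). All mice thus shared the retinopathy, the strain, the age and an injected vector. The treatment label of the second group reads AAV KO, whereas the design text speaks of a knockdown, and no source used here names the promoter of the vector or the cells it reached.

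The respiratory chain sits in the inner mitochondrial membrane. Complex I (NADH dehydrogenase) and complex II (succinate dehydrogenase) pass electrons to ubiquinone, complex III passes them on to cytochrome c, and complex IV (cytochrome c oxidase) reduces oxygen. Complexes I, III and IV pump protons, and complex V (ATP synthase) uses the resulting gradient to make ATP. Most subunits are encoded in the nucleus and imported, while the mitochondrial genome supplies a small hydrophobic core. Photoreceptor inner segments are packed with mitochondria, and the retina is among the tissues with the highest oxygen use.

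The libraries held 16.03 to 21.4 M estimated counts (M, 1000000 counts), and all 4 controls were deeper than all 4 knockdown libraries. The target, listed as Mm2pr, had 1, 1, 16.95 and 7.34 counts in the controls and 0, 0, 2 and 20.6 in the knockdown libraries, so it does not check the group labels. Rod markers, which define the tissue, summed to 30652 to 32502 TPM (transcripts per 1000000) in the controls and 28807 to 31071 TPM in the knockdown libraries. Markers of other cells differed between libraries. The 6 lens markers summed to 1.44 to 3.77 TPM in the controls and 19.8 to 236 TPM in the knockdown libraries, and the 6 ganglion cell markers to 1156 to 1224 and 920 to 1146 TPM. The 5 retinal pigment epithelium markers summed to 240 to 303 TPM in the controls and 201 to 296 TPM in the knockdown libraries. For the 5 erythrocyte markers the sums were 315 to 462 and 409 to 640 TPM. The 7 skeletal muscle markers reached 71.5 TPM in knockdown 4 and 5.06 to 13.3 TPM elsewhere. The part of these in the values below was not tested. Nothing in the labels says that replicates are separate animals, so p-values measure the spread between these libraries. In whole retina, fewer cells of a type and less RNA per cell cannot be told apart.

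No gene of the respiratory chain passed the test between the groups. Of the 86 entries, 81 were tested, since they reached 1 TPM or more in 4 or more libraries. By edgeR's quasi-likelihood test at a Benjamini-Hochberg adjusted p under 0.05, 0 were called higher, where 0.0434% of the 16118 tested genes were, and 0 lower, where 0.0186% were, or 0.062% in either direction. The smallest adjusted p among them was 0.944, and DESeq2 and limma also called 0. At an unadjusted edgeR p under 0.05 there were 0 of 81, against 5.27% of all tested genes. The log2 fold changes of knockdown over control ran from -0.33 to 0.38, with 46 above and 35 below 0 and a median of 0.01, against a median of 0.00 over all tested genes. Of the 81, 12 were further from 0 than 0.1 on the log2 scale, against 5836 of the 16118 tested genes. The genes of the chain were also more abundant, with a median of 142 TPM against 18.8 TPM over all tested genes.

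Since a missed threshold does not show equality, the 95% intervals of the fold changes were read directly. For 76 of the 81 genes the interval lay within a 1.5-fold change in either direction and for 79 within a 2-fold change. The 5 genes whose interval reached past 1.5-fold were Ndufb4, Cox6b2, Cox7a1, Cox8b and Atp5g2, all of them low in this tissue. The 4 Cox and Atp5 genes among them averaged 1.33 to 14.7 TPM, and Ndufb4 25.8 TPM, against a median of 142 TPM over the tested genes of the chain. Level was not all that set this: Ndufb4 had an SE of 0.155 and a log2 fold change of -0.28. Ndufc1, at 92.7 TPM, had a larger SE of 0.169 and stayed within 1.5-fold. For each of the 76 genes, a difference of 1.5-fold between the groups lies outside the interval.

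**Figure D1:**
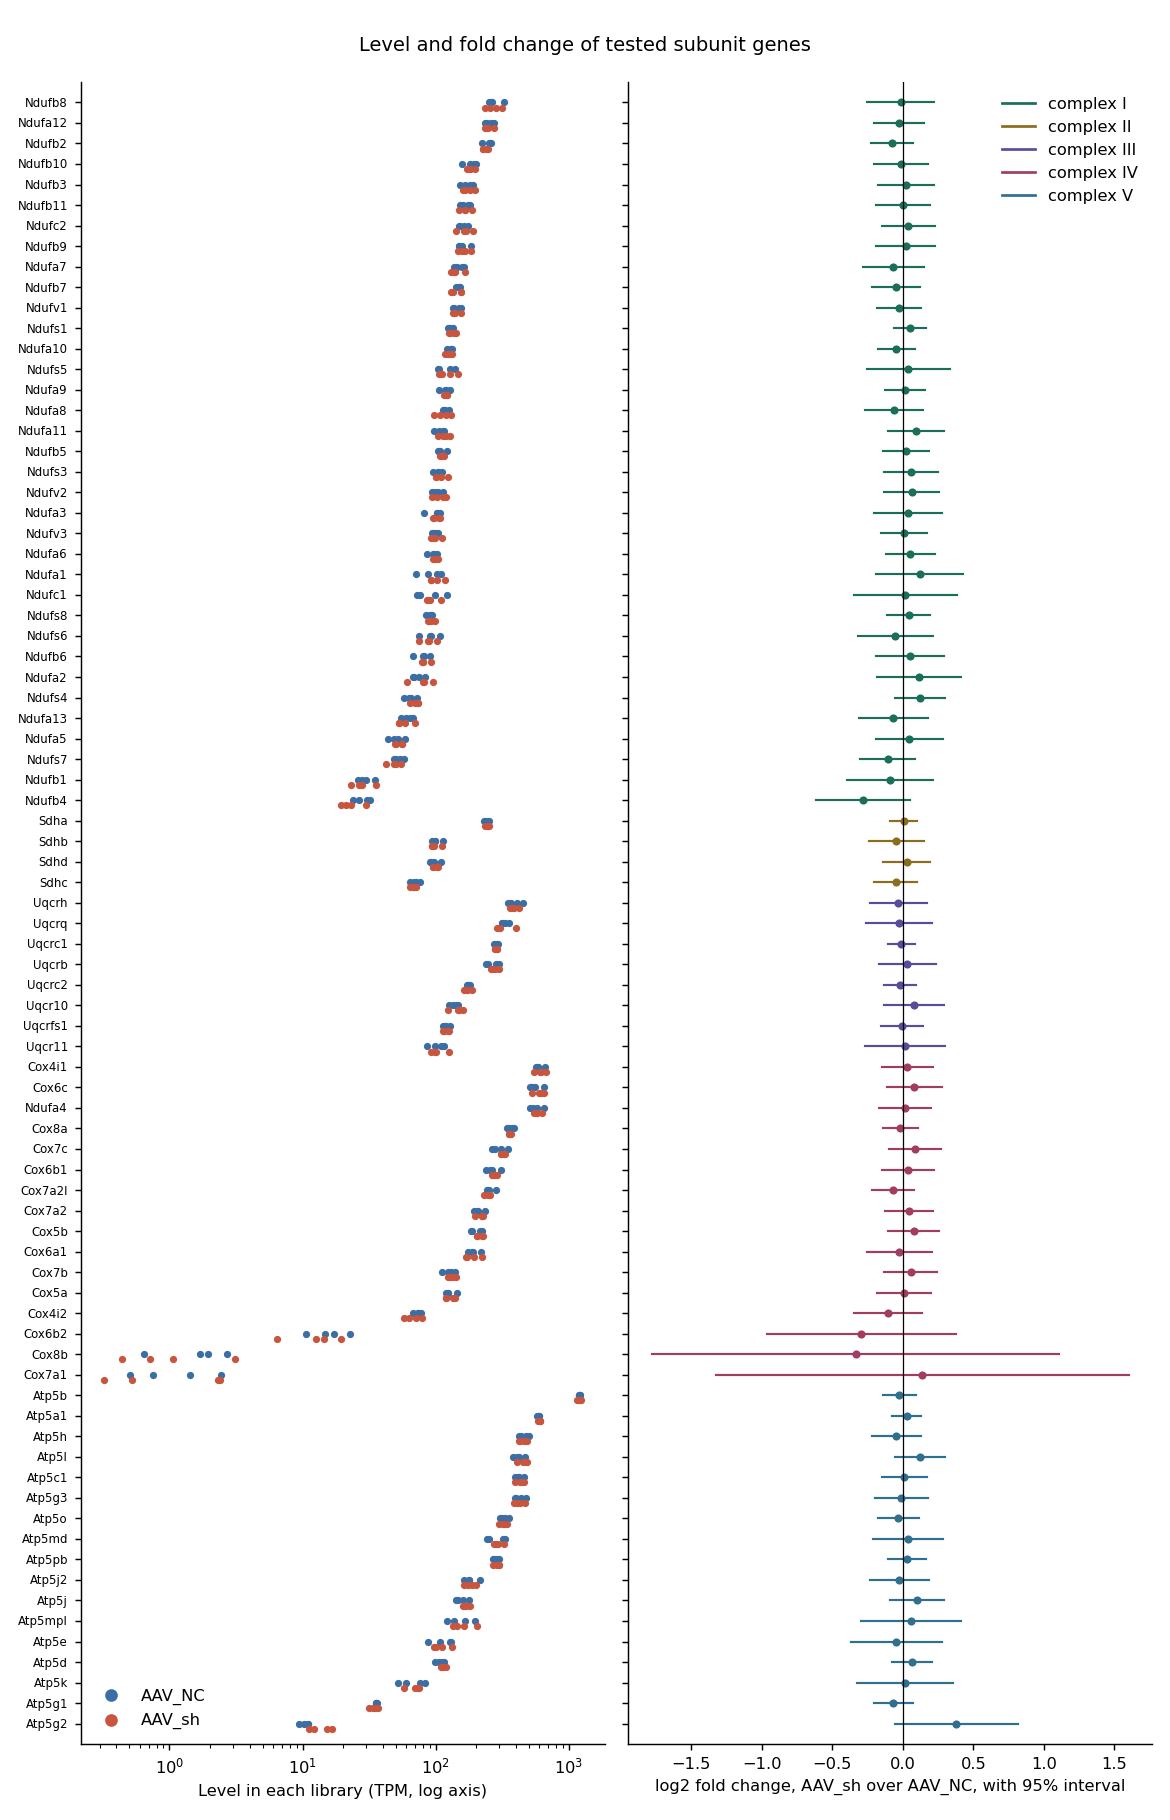
Left, the level of the tested subunit genes shown, in each library (TPM, log axis; blue, AAV_NC; red, AAV_sh); right, its edgeR log2 fold change with the 95% interval, coloured by complex. The points of both groups lie over each other in nearly every row, and wide intervals occur in the rows with the lowest levels, such as Cox7a1 and Cox8b.

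The summed level of all 86 entries was 15902 ± 1082 TPM (SD, n = 4) in the controls and 16060 ± 856 TPM (SD, n = 4) in the knockdown, or 1.49% to 1.74% of all transcripts by TPM in a library. The controls had 15332, 14872, 16053 and 17352 TPM and the knockdown libraries 17204, 15998, 15909 and 15131 TPM. The ranges of the groups overlapped throughout, and control 4 and knockdown 1 were the highest of their groups. In each of the 5 complexes control 4 was the highest control, control 2 the lowest control, and knockdown 1 the highest knockdown library. The ratio of knockdown to control means was 1.004 for complex I, 0.998 for complex II, 1.0002 for complex III, 1.02 for complex IV and 1.01 for complex V.

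**Figure D2:**
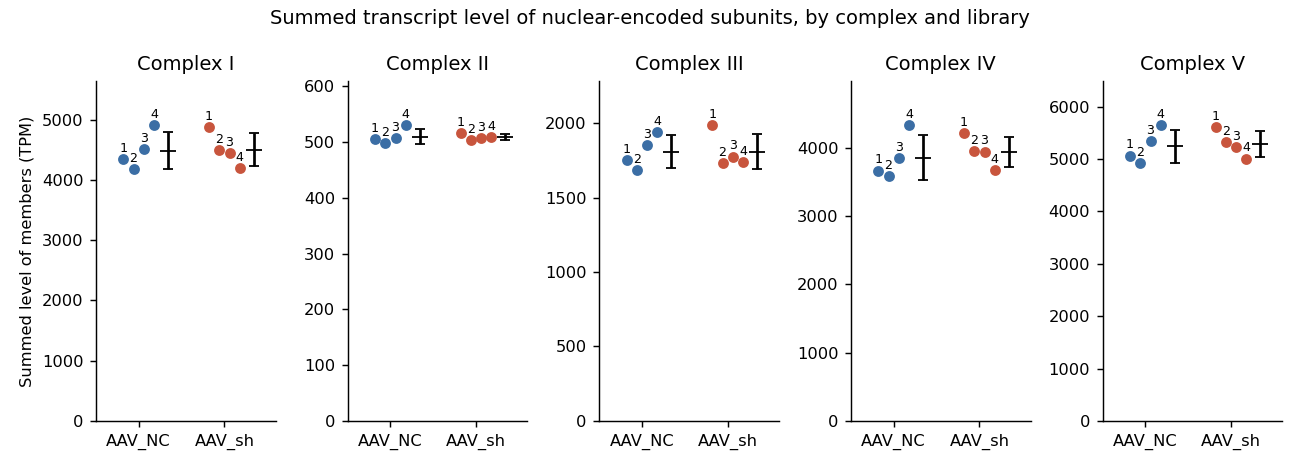
Summed TPM of the nuclear-encoded subunits of each complex, with 1 point per library, its replicate number above it, and the mean ± SD of 4 libraries beside each group. Control 4 and knockdown 1 stand at the top of their groups in all 5 complexes, and complex II lies within 497 to 530 TPM in all 8 libraries.

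Promoters of respiratory genes are known for binding sites of NRF1, a nuclear respiratory factor, of the ETS factor GABPA (also called NRF2) and of YY1. The RefSeq promoter table on GRCm38.p6, 300 bases from 250 before to 50 after each start, matched 69 of the 85 symbols with 74 windows. Among those without an entry were Atp5a1, Atp5mpl, Cox4i1, Cox4i2, Cox6a2, Cox6c, Cox6c2, Cox8c, Ndufa2, Ndufb9, Ndufs1, Sdhc, Uqcrb, Uqcrc2 and Uqcrq. Both strands were searched. The palindromic NRF1 letters, those in capitals in the sequences that follow, stood in 5 of the 74 windows (6.76%) and in 0.97% of all 32851 windows. A looser NRF1 form with a free position, which can overlap the first, stood in 13.5% and 2.44%. The GABPA letters ACTTCCG or CCGGAAG stood in 27.0% and 10.9%, the YY1 letters AAGATGGC in 13.5% and 2.75%, and the cyclic AMP response letters TGACGTCA in 5.41% and 1.79%. These are counts of letters, not of bound sites. Of the 5 genes with the full NRF1 letters, Uqcrc1 has them after the start. The other 4 are shown because each complex but II and III is represented among them, and because Atp5g2 is the gene with the largest fold change of the chain. The 180 bases before the start are given 5′ to 3′ on the gene's strand, with the NRF1 letters in capitals.
Atp5g2 (chr15:102671048-102671227, minus strand): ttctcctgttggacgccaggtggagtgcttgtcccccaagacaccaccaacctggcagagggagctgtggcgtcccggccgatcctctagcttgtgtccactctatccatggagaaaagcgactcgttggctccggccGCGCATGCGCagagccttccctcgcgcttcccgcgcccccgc
Atp5k (chr5:108434400-108434579, minus strand): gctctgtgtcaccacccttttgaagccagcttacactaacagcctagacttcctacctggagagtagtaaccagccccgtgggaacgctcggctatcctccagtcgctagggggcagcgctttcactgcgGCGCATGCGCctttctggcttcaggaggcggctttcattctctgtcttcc
Cox6a1 (chr5:115348959-115349138, minus strand): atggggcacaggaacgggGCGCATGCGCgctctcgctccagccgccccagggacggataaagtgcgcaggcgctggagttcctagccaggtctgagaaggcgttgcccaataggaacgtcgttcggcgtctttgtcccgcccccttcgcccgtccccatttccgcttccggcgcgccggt
Ndufa11 (chr17:56717582-56717761, plus strand): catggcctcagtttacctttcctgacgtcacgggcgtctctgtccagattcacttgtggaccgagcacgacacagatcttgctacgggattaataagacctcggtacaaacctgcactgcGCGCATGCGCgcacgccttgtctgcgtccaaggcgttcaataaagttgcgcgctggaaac
The first letter of the motif lies 42 bases before the start in Atp5g2, 50 in Atp5k, 60 in Ndufa11 and 162 in Cox6a1. These starts are those of the promoter entries. For Atp5g2 the whole stretch shown lies inside the GENCODE M21 span of the gene (102662864 to 102672352), whose own start is further upstream. The GENCODE starts of Atp5k (108434448) and Cox6a1 (115348981) also fall within the stretches shown. In Atp5k the part inside the gene takes in most of the motif. On average over the 8 libraries these genes had 12.1 TPM for Atp5g2, 68.1 TPM for Atp5k, 190 TPM for Cox6a1 and 112 TPM for Ndufa11. A relation of the letters to the level was not tested. Their log2 fold changes were 0.38, 0.01, -0.02 and 0.09.

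Complex I is assembled from an NADH-oxidizing N module, a ubiquinone-reducing Q module and a proton-pumping membrane arm. All 36 of its genes were tested, 0 were called, and their median log2 fold change was 0.02, with 21 above and 15 below 0. The medians were 0.03 for the 10 genes of the N module, 0.04 for the 5 of the Q module and 0.01 for the 21 of the membrane arm. Among the abundant genes was Ndufb8, which encodes a membrane arm subunit. It had 275 ± 33.6 TPM in the controls and 273 ± 34.2 TPM in the knockdown (SD, n = 4 each).

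Ndufb4, which encodes an accessory subunit of the membrane arm, had the smallest p of complex I. Its levels were 30.5, 24.0, 26.5 and 32.2 TPM in the controls and 29.9, 19.4, 23.0 and 21.1 TPM in the knockdown libraries. Knockdown 1 lay among the controls and the other knockdown libraries below the lowest control, so the groups overlapped. The log2 fold change was -0.28 (SE 0.15, 95% interval -0.62 to 0.05, edgeR adjusted p = 0.951). Its counts were fractional in all 8 libraries, so its level is uncertain where the counting split reads between similar loci. Without knockdown 1 the log2 fold change was -0.45, with an edgeR adjusted p of 0.374.

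Ndufs4, an accessory N module gene whose loss in humans and mice causes a mitochondrial encephalopathy, had the next smallest p. The controls had 62.7, 58.1, 64.7 and 71.8 TPM and the knockdown libraries 73.3, 69.6, 73.8 and 64.4 TPM. Most knockdown values lay above most control values, but control 4 and knockdown 4 crossed. This gave a log2 fold change of 0.12 (SE 0.08, edgeR adjusted p = 0.989). The 7 catalytic core genes, which carry the flavin and the iron-sulfur clusters, had log2 fold changes with a median of 0.04 and a range from -0.11 (Ndufs7) to 0.06 (Ndufv2).

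Complex II is encoded by 4 nuclear genes and has no mitochondrially encoded subunit. Its summed level was 510 ± 14.01 TPM (SD, n = 4) in the controls and 509 ± 5.11 TPM (SD, n = 4) in the knockdown. Sdha, the gene of the flavoprotein that oxidizes succinate, led with 238, 249, 247 and 232 TPM in the controls and 233, 243, 246 and 249 TPM in the knockdown libraries. Its log2 fold change was 0.01, with a 95% interval of -0.09 to 0.10. The gene of the iron-sulfur subunit, Sdhb, averaged 100.04 TPM over the 8 libraries and those of the membrane anchors, Sdhd and Sdhc, 98.1 and 68.8 TPM. The log2 fold changes of these 3 genes lay between -0.05 and 0.03.

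All 8 genes of complex III in the set were tested, with log2 fold changes between -0.03 and 0.08 and 0 calls. Uqcrh, the hinge protein gene, had the highest level at 393 ± 47.0 TPM in the controls and 386 ± 26.3 TPM in the knockdown (SD, n = 4 each). Uqcrq, a small membrane subunit gene, came next. It had 316, 314, 333 and 353 TPM in the controls and 401, 287, 297 and 305 TPM in the knockdown libraries. Knockdown 1 was the highest of all 8 and the other knockdown libraries were below every control, so that its log2 fold change was -0.03 with knockdown 1 and -0.18 without it (edgeR adjusted p = 0.997 and 0.540). The core protein genes Uqcrc1 and Uqcrc2 averaged 284 and 174 TPM and the Rieske iron-sulfur protein gene Uqcrfs1 119 TPM over the 8 libraries, with log2 fold changes of -0.01, -0.02 and -0.01. Cyc1, the cytochrome c1 gene, falls outside the name rule and had 103 ± 4.81 and 102 ± 4.92 TPM (SD, n = 4 each).

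Complex IV genes were the most uneven in level, since the set holds ubiquitous subunits beside isoforms of heart and skeletal muscle (Cox6a2, Cox7a1, Cox8b), of testis (Cox6b2, Cox7b2, Cox8c) and of lung and hypoxic cells (Cox4i2). Of its 20 genes 16 were tested and 0 were called, with a median log2 fold change of 0.02. Cox4i1, the ubiquitous isoform of the largest nuclear-encoded subunit, had 597 ± 45.1 TPM in the controls and 611 ± 55.1 TPM in the knockdown (SD, n = 4 each). Cox6c was nearly as high at 560 ± 58.9 and 594 ± 50.4 TPM, and Ndufa4 averaged 572 TPM over the 8 libraries. Cox7a2l had 256 ± 17.9 and 246 ± 11.5 TPM (log2 fold change -0.07, SE 0.07, edgeR adjusted p = 0.989).

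Cox4i2, the oxygen-regulated isoform, is also known as a marker of vascular mural cells. It had 67.7, 73.2, 73.2 and 77.5 TPM in the controls and 79.1, 71.3, 57.6 and 62.6 TPM in the knockdown libraries. Knockdown 3 and 4 were below every control while knockdown 1 was above all of them. The log2 fold change was -0.11 (SE 0.11, 95% interval -0.35 to 0.14, edgeR adjusted p = 0.989). Its share of the summed Cox4 level was 10.9 ± 0.347% in the controls and 9.96 ± 0.862% in the knockdown (SD, n = 4 each), with the lowest value, 8.67%, in knockdown 3. Cox4i1 thus supplied most Cox4 transcripts in every library.

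The other tissue isoforms were minor. Cox6b2 had 10.6, 14.7, 17.2 and 22.5 TPM in the controls and 14.3, 12.6, 6.44 and 19.4 TPM in the knockdown libraries, a share of 2.25% to 6.89% of the Cox6b level with overlapping groups. Cox8b and Cox7a1 rested on sums of 21 and 21 counts in the controls and 15 and 21 in the knockdown, and made up at most 0.858% of the Cox8 and 1.17% of the Cox7a level. Cox6a2 had 14 counts in the controls, 8 of them in control 3, and 12 in the knockdown, 9 of them in knockdown 4. The highest shares of Cox6a2, Cox7a1, Cox8b and Cox6b2 all fell in knockdown 4, the library with 71.5 TPM of skeletal muscle markers. Some margins were small. Cox6a2 had 0.967% there against 0.717% in control 3, and Cox7a1 1.17% against 1.07% in knockdown 2. Cox8b had 0.858% against 0.727% in control 1, and Cox6b2 6.89% against 6.78% in control 4. By TPM, Cox6a2 and Cox8b were also highest in knockdown 4, but Cox7a1 (2.42 TPM) and Cox6b2 (22.5 TPM) were highest in control 4. In knockdown 4 Myh4, a fast muscle myosin gene, had 118 counts against 0 to 2 elsewhere. The part of muscle RNA in these shares was not tested. Cox7b2 had 2 counts in the controls and 1 in the knockdown, and Cox8c, Cox6c2 and the second Atp5o entry had 0 in all 8 libraries, where 3 counts correspond to 0.140 to 0.187 counts per 1000000. That floor covers counting error only.

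**Figure D3:**
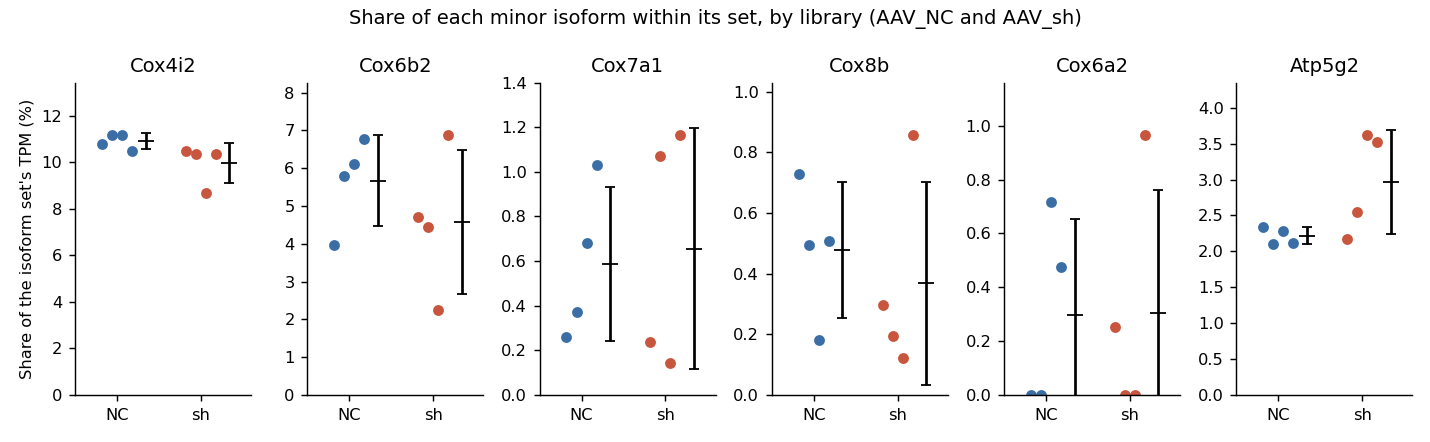
Share of 6 minor isoforms in the summed TPM of their isoform set, in percent, with 1 point per library (NC, AAV_NC; sh, AAV_sh) and the mean ± SD of 4 libraries. Cox4i2 lies between 8.67% and 11.2% in all libraries, and Atp5g2 reaches 3.53% and 3.63% in knockdown 4 and 3.

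Complex V had the most abundant genes. Atp5b, the gene of the catalytic β subunit, was the highest of all 86 entries, with 1196, 1195, 1212 and 1218 TPM in the controls and 1225, 1195, 1157 and 1172 TPM in the knockdown libraries. Knockdown 3 and 4 were the lowest and knockdown 1 the highest, and the groups overlapped. The fitted difference was -0.03 on the log2 scale (SE 0.05, edgeR adjusted p = 0.997). Atp5a1, the gene of the α subunit, was as steady at 586 ± 8.27 TPM in the controls and 599 ± 7.33 TPM in the knockdown (SD, n = 4 each). The 5 genes of the F1 head and central stalk together had a median log2 fold change of 0.01, the 4 tested genes of the peripheral stalk 0.00 and the 8 of the membrane part 0.02. Atp5l, which encodes the g subunit at the dimer interface, had 404, 380, 424 and 466 TPM in the controls and 478, 454, 486 and 408 TPM in the knockdown libraries (log2 fold change 0.12, SE 0.08, edgeR adjusted p = 0.988). Control 4 and knockdown 4 again crossed the other group.

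The c ring, the rotor through which protons pass, is built from 1 mature protein that 3 genes encode with different import sequences. Atp5g3 supplied 90.2 ± 0.609% of their summed TPM in the controls and 89.8 ± 0.793% in the knockdown, Atp5g1 7.59 ± 0.549% and 7.23 ± 0.128%, and Atp5g2 2.21 ± 0.119% and 2.97 ± 0.721% (SD, n = 4 each). Atp5g1 is listed with a gene length of 4660 bases and Atp5g3 with 723, and the per-length level of Atp5g1 rests on that length. In controls Atp5g1 was among the least variable genes of the set, at 35.5, 35.4, 35.8 and 36.0 TPM.

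Atp5g2 (chromosome 15, 102662864 to 102672352, GRCm38) was the 1 tested gene of the 81 whose group ranges did not overlap, where 2.95% of all tested genes had such ranges. It had 10.2, 9.41, 11.1 and 11.04 TPM in the controls and 11.3, 12.1, 16.6 and 15.3 TPM in the knockdown libraries. Knockdown 3 and 4 were the highest, and knockdown 1 was just above control 3. The log2 fold change was 0.38 (SE 0.20, 95% interval -0.06 to 0.81, edgeR adjusted p = 0.944), so that the difference did not pass. It rested on 154 summed counts in the controls and 181 in the knockdown, with fractional counts in all 8 libraries. The other genes with fractional counts in every library were Ndufb4, Cox7c and Atp5l, and 25 of the 86 entries had a fractional count in at least 1 library.

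The genes of the chain varied together between libraries of the same group by more than the groups differed. Of the 81 tested genes, 76 were above their control mean in control 4, and 67 below it in control 2. In the knockdown, 67 were above the group mean in knockdown 1 and 69 below it in knockdown 4. The median shift from the group mean was 0.14 on the log2(TPM) scale in control 4, -0.10 in control 2, 0.11 in knockdown 1 and -0.09 in knockdown 4. All 5 complexes shifted the same way in these 4 libraries. Cytosolic ribosomal protein genes, an unrelated group of short abundant transcripts, shifted alike, by 0.14 in control 4, -0.08 in control 2, 0.17 in knockdown 1 and -0.13 in knockdown 4.

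The size of the shift was also read by gene length. In control 4 it was 0.19 for the 29 tested genes of the chain under 600 bases, 0.16 for the 25 of 600 to under 1000 bases and 0.11 for the 27 of 1000 bases or more. Control 2 (-0.14, -0.12 and -0.08) and knockdown 1 (0.13, 0.11 and 0.06) had the same order of sizes. Knockdown 4 did not, with -0.09, -0.12 and -0.06. Among all tested genes of those lengths the median shifts in control 4 were 0.13, 0.06 and -0.06, and in knockdown 1 they were 0.12, 0.07 and -0.07. Genes of the chain of 1000 bases or more thus shifted up in both libraries, while the median over all tested genes of that class was negative. The class has no upper limit, and lengths within it were not matched between the sets. Within groups the coefficient of variation had a median of 11.4% for genes of the chain under 600 bases, 9.02% for 600 to under 1000 bases and 5.63% for longer ones. Counting error alone would give medians of 4.54%, 3.24% and 2.66%. Atp5a1 (1.32%), Atp5b (1.88%), Uqcrc1 (2.54%) and Sdha (3.12%), genes of 1653 to 2900 bases, varied least, and Cox8a (3.6%) was a short gene that also varied little. Among genes above 50 TPM, Atp5mpl (20.6%) and Ndufc1 (19.3%) varied most. Across the 81 genes, which share the same libraries, the Spearman correlation of this coefficient with gene length was -0.68, and -0.66 over the 74 genes of at least 50 TPM.

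**Figure D4:**
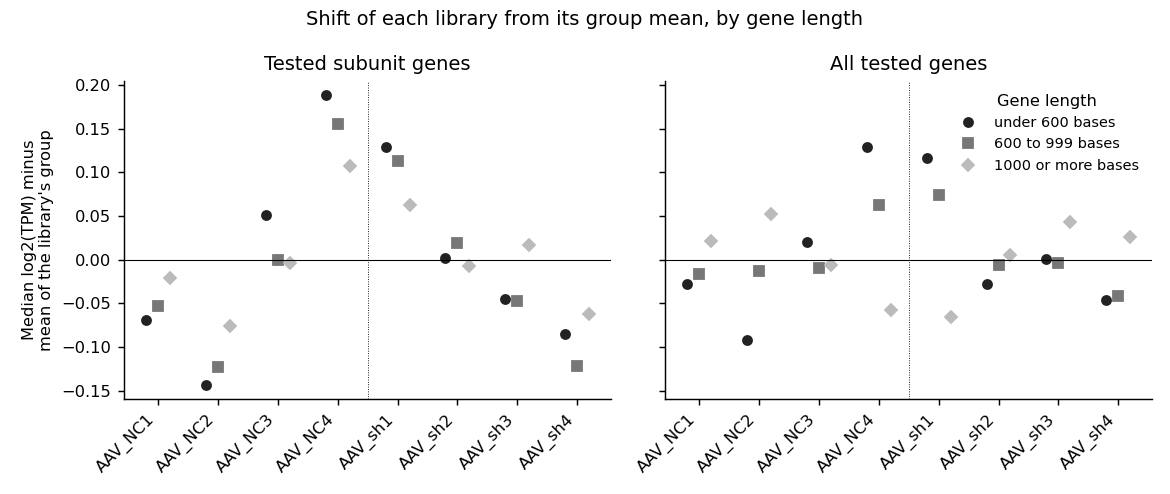
Median log2(TPM) of each library minus the mean of its group, for the tested subunit genes (left) and all tested genes (right), split by gene length. In AAV_NC4 and AAV_sh1 the subunit genes lie above 0 at every length, whereas the median over all tested genes of 1000 bases or more lies below 0 there.

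The balance of signs in the group comparison moved with single libraries. With all libraries 46 of the 81 log2 fold changes were above 0. Without control 4 the number was 66, with a median of 0.07, and without knockdown 1 it was 18, with a median of -0.05. It was 28 without control 1, 22 without control 2 and 61 without knockdown 4. With control 4 and knockdown 1 both left out it was 49, with a median of 0.01. Leaving out any 1 library gave 0 calls among these genes. Unadjusted edgeR p-values under 0.05 appeared for Cox6c, Cox7c, Ndufs4, Atp5j and Atp5l without control 4, all higher in the knockdown, and for Atp5g1, Cox4i2, Ndufb4 and Uqcrq without knockdown 1, all lower. Without control 2 there was Ndufb4, lower, and without knockdown 4 Atp5l, higher, and the other single libraries left out gave 0. The 5 genes without control 4 and the 4 without knockdown 1 are 6.17% and 4.94% of the 81, where 4.96% and 8.01% of all tested genes had such p-values.

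Other genes of the pathway were taken from fixed lists. The 13 mitochondrially encoded subunit genes summed to 68731 ± 4647 TPM in the controls and 69472 ± 4232 TPM in the knockdown (SD, n = 4 each), and 0 of 13 were called. Of these only mt-Atp8, which encodes a small membrane subunit of complex V, had an unadjusted edgeR p under 0.05. Its log2 fold change was 0.21 (edgeR adjusted p = 0.918). Of all tested genes, 5.27% had such an unadjusted p. For mt-Co2 and mt-Co3, genes of complex IV core subunits, the 95% intervals reached past a 2-fold change, from -1.01 to 0.21 and from -1.18 to 1.152 on the log2 scale. The nuclear genes of the chain together amounted to 0.231 ± 0.00456 of the summed mitochondrial level in the controls and 0.232 ± 0.0179 in the knockdown. The extremes, 0.207 and 0.249, were in knockdown 4 and 3. Counts of mt-Co1, mt-Co2, mt-Co3, mt-Atp6 and mt-Nd3 were fractional in all 8 libraries, and those of mt-Nd4l in 7. Their levels, the sum and the ratio are uncertain where the counting split reads between similar loci. Within the controls mt-Co3 ran from 64.7 to 1039 TPM. Of 44 assembly factor genes 0 were called, with a median log2 fold change of -0.01. An unadjusted edgeR p under 0.05 was found for 2 of the 44, against 5.27% of all tested genes. Those were Cox17, a copper chaperone gene, at 120.4 ± 5.77 and 138 ± 11.5 TPM, and Cox18, at 9.13 ± 0.624 and 11.2 ± 1.33 TPM (SD, n = 4; edgeR adjusted p = 0.930 for each). The mobile carrier gene Cycs and the ATP synthase inhibitor gene Atpif1 had log2 fold changes of -0.01 each. Of 9 genes linked to the hypoxic remodelling of respiration 0 were called, among them Bnip3 at 257 ± 13.2 and 261 ± 26.9 TPM and Pdk1, which limits pyruvate entry into the mitochondrion, at 35.8 ± 0.779 and 36.4 ± 3.45 TPM.

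Of 15 genes for regulators of respiratory genes 0 were called by edgeR, and Esrrb had the smallest p. Esrrb encodes an oestrogen-related receptor that rods express and that acts on genes of oxidative metabolism. It had 196, 207, 200.1 and 199 TPM in the controls and 220.002, 242, 248 and 244 TPM in the knockdown libraries. Every knockdown library was above every control, as was so for 1.5% of all tested genes. The fitted difference was 0.24 on the log2 scale (SE 0.05), with an adjusted p of 0.127 by edgeR, and DESeq2 called it (adjusted p = 2.94e-05). The edgeR adjusted p was 0.0450 without knockdown 1, 0.0249 with no expression filter and 0.465 without control 1, and limma gave 0.260, with log2 fold changes of 0.23 to 0.27 over these and the other alternatives. The coactivator gene Ppargc1b had 88.03 ± 8.85 and 78.5 ± 5.84 TPM (SD, n = 4 each; edgeR adjusted p = 0.822). Ppargc1a, Nrf1, Gabpa and Yy1 had log2 fold changes of -0.02, -0.04, 0.07 and -0.03.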

How the data were processed

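Retinal RNA of 4 control and 4 knockdown libraries was compared. The authors deposited a table of estimated counts per gene (expected counts), although its name speaks of TPM: library totals differ and 90.6% to 91.9% of the entries are whole. Per the submitters' processing notes, Bowtie 0.12.2 and mm9 were involved in a role that is not stated. The counting tool is not given in the sources used here. For edgeR the estimates were rounded. TPM came from the unrounded estimates and the gene lengths in the table. Genes with 1 TPM or more in 4 or more libraries were tested with edgeR 4.0.16 in R 4.3.3 (quasi-likelihood, TMM, group as the only term, Benjamini-Hochberg over all tested genes). SE was obtained by dividing the size of the log2 fold change by the root of F, and 95% intervals use the t distribution on the fit's total degrees of freedom. DESeq2 1.42.0 and limma 3.58.1 on log2(TPM + 1) were alternatives. The fit was checked on simulated data. Positions are from GENCODE M21 on GRCm38, and all 86 identifiers were found there. The named genes were those without overlap between groups, in each complex the 2 with the highest level and the 2 with the smallest p, the isoform sets and the most and least variable. Others were named after their values were seen. The members, lists and alternatives were chosen with earlier results of these data known. A gene of complex I is counted but not reported here by name.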

Additional observations from a re-analysis of the deposited data

Results flagged for a closer look

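Among 72 sets of 4 values examined (30 named genes and 6 sums in each group), 3 held 1 library far from the other 3 by Dixon's ratio, where chance flags about 1 in 20 sets. Uqcrq had 401 TPM in knockdown 1 and 287 to 305 TPM in the other knockdown libraries. The summed level of complex III was 1985 TPM in knockdown 1 and 1734 to 1775 TPM in the others. Atp5a1 had 588 TPM in knockdown 4 and 602 to 604 TPM in the others, a gap of little size in a very steady gene.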

How the results depend on the processing

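The number of called genes of the respiratory chain was 0 in each direction under all 18 alternatives, and 0 to 5 of them had an unadjusted p under 0.05. The medians and summed ratios of the complexes moved by less than 1 SD between replicates under each alternative run for them, and the median over all members ran from -0.05 to 0.07. Over 538 values of the 30 named genes 0 were called, the smallest adjusted p was 0.374, and 40 changed sign, all of genes within 0.14 of 0 on the log2 scale. Over all genes, edgeR called 7 higher and 3 lower, DESeq2 16 and 29, limma 0 and 0 on log2(TPM + 1) (4.99% of genes at an unadjusted p under 0.05) and 8 and 1 on log2(TPM + 0.1). With no expression filter 64 and 93 were called, with a mean TPM of at least 5 it was 0 and 1, and with a robust dispersion 0 and 0 (4.95% and 5.17% of genes at an unadjusted p under 0.05). Leaving out 1 library gave 0 to 9 higher and 0 to 52 lower, the last without control 3. The cause of these differences was not tested. With the replicate number as a block, 9 higher and 2 lower genes and 0 members were called. Deviations of same-numbered libraries correlated at 0.01, 0.00, -0.04 and -0.11. These values show no sign of a pairing by number. They cannot exclude one, since differently numbered libraries were not compared. Depth limits the rare isoforms, with 12 to 21 counts per group for Cox6a2, Cox7a1 and Cox8b.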

Other observations

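Ndufa4l2, a hypoxia-induced relative of Ndufa4 that the name rule leaves out, had 217 TPM in knockdown 1 and 97.4 to 125 TPM in the other 7 libraries (log2 fold change 0.21, edgeR adjusted p = 0.989). Iscu, an iron-sulfur cluster scaffold gene, had 48.7, 52.7, 48.5 and 53.1 TPM in the controls and 47.0, 48.04, 43.7 and 41.6 TPM in the knockdown libraries, with no overlap between the groups and an edgeR adjusted p of 0.934. Mxi1, from the same list of 9 genes, did not overlap in the other direction, with 107 to 113.77 TPM in the controls and 113.81 to 115 TPM in the knockdown (edgeR adjusted p = 0.989). Of all tested genes, 2.95% had ranges without overlap. These genes were chosen after their values were seen.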
